A study of Homo sapiens with 24 samples.

Results

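The genes described here are 10 of the 39321 rows of the deposited count table and were chosen by name. They are *TAP1* and *TAP2*, *TAPBP* and *TAPBPL*, *ERAP1* and *ERAP2*, *CALR*, *CANX* and *PDIA3*, which trim and load peptides for MHC class I, and *NLRC5*, which regulates class I genes. RNA was sequenced from A498 and 786-O, established human clear cell renal cell carcinoma (ccRCC) lines, in 24 libraries. Cells received a non-targeting control siRNA (Cnsi) or a pool that silences PD-L1 (PD-L1si), both at 20 nM, and 24 hours later either no cytokine or interferon gamma (IFNγ) at 50 ng/mL for a further 24 hours. This gave 4 groups per line with 3 replicates each, named PD-L1si and PD-L1si IFNγ where PD-L1 was silenced and Cnsi and Cnsi IFNγ where it was not, so every library carried a transfected siRNA. The labels call the silenced groups knockout, and the methods describe transient silencing with siRNA.

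MHC class I molecules show short peptides from inside the cell to cytotoxic T lymphocytes. The peptides are cut by the proteasome, carried into the endoplasmic reticulum by the TAP1-TAP2 transporter, and shortened there by the aminopeptidases ERAP1 and ERAP2. Calnexin (encoded by *CANX*) holds the newly made heavy chain. Calreticulin (*CALR*), the disulfide isomerase ERp57 (*PDIA3*) and tapasin (*TAPBP*) then hold the receptive class I molecule at the transporter, and the tapasin relative TAPBPR (*TAPBPL*) edits peptides away from that complex. NLRC5 is a transactivator of class I promoters that acts with the RFX, NF-Y and CREB proteins, and IFNγ, in part through IRF1, is a known inducer of much of this machinery.

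Promoters from RefSeq (GRCh38.p14, 250 bases before to 50 bases after a transcription start) were found for 8 of the 10 genes, in 15 windows. They were searched on both strands for GAAANNGAAA, the core letters of an interferon-stimulated response element (ISRE), and for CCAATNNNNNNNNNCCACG, the endoplasmic reticulum stress element (ERSE) known from chaperone promoters. The ISRE letters were found in 5 of the 15 windows, for 5 genes (*TAP1*, *TAP2*, *TAPBP*, *ERAP1* and *ERAP2*), and in 3.57% of all 34943 promoter windows. The ERSE letters were found in 4 of the 15 windows, for *CALR* and *CANX*, and in 0.0773% of all windows. The *CANX* windows that held them overlap and share the same stretch. The stretches are shown as a description of these promoters. All 5 genes with ISRE letters rose with IFNγ in A498, where 18.2% of all genes tested rose, and *CALR* and *CANX* did not. *TAPBPL* also rose, with neither in its windows. Whether the letters bear on the response was not tested. The stretches are written 5′ to 3′ on the gene's strand, with the matched letters or their reverse complement in capitals.
*TAP1*, 2 overlapping ISRE matches (chr6:32853817-32853868, minus strand): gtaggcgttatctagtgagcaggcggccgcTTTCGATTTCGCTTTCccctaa
*TAP2*, ISRE (chr6:32838758-32838827, minus strand): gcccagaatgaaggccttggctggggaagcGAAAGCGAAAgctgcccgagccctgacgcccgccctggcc
*TAPBP*, 2 overlapping ISRE matches (chr6:33314076-33314105, minus strand): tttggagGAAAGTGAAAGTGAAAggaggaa
*ERAP1*, ISRE (chr5:96807924-96807953, minus strand): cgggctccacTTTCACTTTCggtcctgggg
*ERAP2*, ISRE (chr5:96876460-96876489, plus strand): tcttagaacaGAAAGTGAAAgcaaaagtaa
*CALR*, ERSE (chr19:12938359-12938432, plus strand): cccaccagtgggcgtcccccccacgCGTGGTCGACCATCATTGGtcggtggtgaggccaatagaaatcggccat
*CANX*, ERSE (chr5:179698773-179698801, plus strand): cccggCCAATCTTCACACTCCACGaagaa

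A gamma-activated sequence written as TTCNNNGAA was found in 1 of these windows, at the second *TAP1* promoter, and in 7.66% of all windows. The table of promoters used here has no entry for *PDIA3* and *NLRC5*. A match of letters is a description of the sequence and was not tested as a binding site.

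Total counts per library ran from 19256316 to 30350461. Values are given as CPM, the count relative to the library total as scaled by the TMM method within a line. A gene was called risen or fallen where its log2 fold change passed 0.5 in size and its adjusted p was under 0.05. All 10 genes were tested in libraries labelled A498 (A498 below) and 7 in libraries labelled 786-O (786-O below), because *TAP2*, *TAPBP* and *CALR* were listed at 0 in all 12 libraries of that line and are not measured there. They were not alone, since 1475 of the 12446 rows with over 1000 counts summed over the libraries labelled A498 were listed at 0 throughout those labelled 786-O, *PSMB8* among them. Each line was sequenced on its own instrument, so line and instrument cannot be told apart, and the study's supplementary tables carry the line names the other way round from the labels of the columns. Renal carcinoma markers (*PAX8*, *KRT8*, *KRT18*, *VIM* and 4 others) had counts for 8 of 8 genes in A498 and for 7 of 8 in 786-O, where *PAX2* was listed at 0. Their summed level spanned 4293 to 6341 CPM in A498 and 4025 to 6587 CPM in 786-O, with the higher values in the IFNγ groups of both lines, and the part of this in the results was not tested. Markers of T lymphocytes, macrophages and endothelium summed to at most 0.143, 0.758 and 1.21 CPM in any library. In RNA from whole cultures, a change in every cell and a change in the share of cells that respond cannot be told apart. Nothing states whether replicates were separate cultures, so p-values measure only the spread between these libraries.

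The silenced gene was measured first. *CD274*, which encodes PD-L1, had, in A498, 3.99, 5.49 and 5.74 in Cnsi, 191, 199 and 191 with IFNγ added, 0.810, 1.01 and 0.926 in PD-L1si and 26.9, 28.5 and 27.7 in PD-L1si IFNγ CPM. In 786-O it had 3.87, 4.18 and 4.18 in Cnsi, 55.7, 59.6 and 65.8 with IFNγ added, 1.46, 1.21 and 1.90 in PD-L1si and 32.7, 30.8 and 30.6 in PD-L1si IFNγ CPM. Every silenced library lay under every control library with the same IFNγ treatment in both lines. The log2 fold change of PD-L1si against Cnsi under IFNγ was -2.81 ± 0.0547 (SE) in A498 and -0.94 ± 0.0702 in 786-O (adjusted p = 1.6e-29 and 6.7e-10, edgeR's quasi-likelihood test, Benjamini-Hochberg adjusted).

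**Figure D1:**
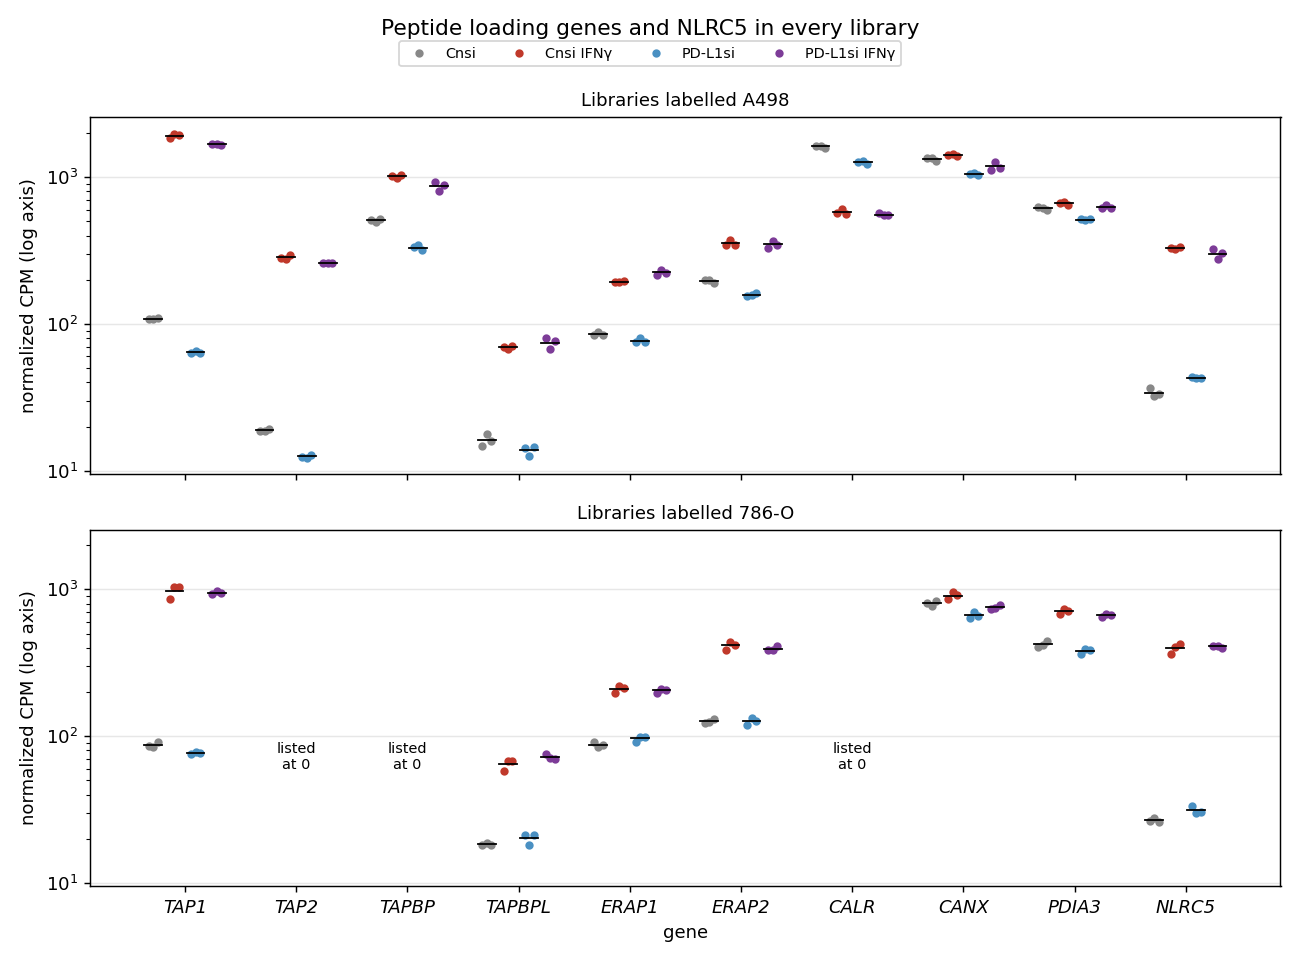
Normalized CPM (log axis) of the 10 genes in every library, with 1 point per library, a line at the mean of each group of 3, and colours for the 4 groups. The IFNγ points of *TAP1*, *TAP2* and *NLRC5* lie far above those without IFNγ, the *CALR* points lie below them, and *TAP2*, *TAPBP* and *CALR* are listed at 0 in the libraries labelled 786-O.

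Without IFNγ the chaperones were the most abundant of the 10 transcripts, and *TAP2* and *NLRC5* were the least. On a scale of CPM per kilobase of the canonical transcript, the level in the Cnsi libraries labelled A498 was 851 ± 17.2 (SD, n = 3) for *CALR*, 271 ± 5.98 for *CANX*, 167 ± 4.05 for *PDIA3* and 147 ± 3.46 for *TAPBP*. It was 40.5 ± 0.487 for *TAP1*, 38.4 ± 1.00 for *ERAP2*, 17.6 ± 0.363 for *ERAP1* and 9.06 ± 0.799 for *TAPBPL*. *NLRC5* stood at 5.01 ± 0.363 and *TAP2* at 3.34 ± 0.0537. No neighbours in this order overlapped over the 3 libraries, but the order of *PDIA3* and *TAPBP*, and that of *TAP1* and *ERAP2*, turned when all annotated exons were used as the length. With IFNγ the order per kilobase changed in A498. *TAP1* came first at 715 ± 24.4, followed by *CALR* (304 ± 13.0), *TAPBP* (295 ± 6.97) and *CANX* (289 ± 5.99), among which each gene overlapped with the next. In the Cnsi libraries labelled 786-O the order of the 7 measured genes ran from *CANX* (164 ± 6.32) through *PDIA3* (115 ± 5.97), *TAP1*, *ERAP2*, *ERAP1* and *TAPBPL* to *NLRC5* (3.94 ± 0.150), and with IFNγ *TAP1* again came first (365 ± 38.0).

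The first comparison asked how IFNγ changed these genes in cells with the control siRNA. In A498, 7 of the 10 genes rose and 1, *CALR*, fell, where 18.2% of all 20916 genes tested rose and 18.5% fell. Of the 7 genes measured in 786-O, 6 rose and none fell, where 11.1% of the 21209 genes tested rose. The median log2 fold change was 1.10 over the 10 genes in A498 and 1.71 over the 7 in 786-O, beside -0.03 and 0.00 over all genes tested. The largest values in size were those of *TAP1*, *TAP2* and *NLRC5* in A498 and of *NLRC5* and *TAP1* in 786-O, and *CANX* passed the threshold in neither line.

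The transporter subunits changed most in A498. *TAP1* (ENSG00000168394, chr6:32845209-32853816, minus strand) had, in A498, 107, 109 and 110.0 in Cnsi, 1851, 1982 and 1925 with IFNγ added, 63.1, 65.2 and 63.4 in PD-L1si and 1694, 1690.2 and 1652 in PD-L1si IFNγ CPM. In 786-O it had 86.3, 84.3 and 91.6 in Cnsi, 863, 1046 and 1033 with IFNγ added, 76.1, 77.5 and 76.4 in PD-L1si and 923, 977 and 943 in PD-L1si IFNγ CPM. All 6 IFNγ libraries of each line lay above all 6 without IFNγ. The first Cnsi IFNγ library labelled 786-O was the lowest of its group, as it also was for *NLRC5*, *ERAP1*, *ERAP2*, *TAPBPL* and *PDIA3*. The log2 fold change in Cnsi cells was 4.14 ± 0.0428 (SE, 17.6-fold) in A498 and 3.49 ± 0.0633 (11.2-fold) in 786-O, ranking 193 and 327 from the top among the genes tested (adjusted p = 5.7e-40 and 7.0e-24, edgeR's quasi-likelihood test, Benjamini-Hochberg adjusted). *TAP2* (ENSG00000204267, chr6:32821833-32838739, minus strand), the partner subunit, had 18.6, 18.7 and 19.2 in Cnsi, 281, 279 and 294 with IFNγ added, 12.4, 12.3 and 12.8 in PD-L1si and 261, 261 and 261 in PD-L1si IFNγ CPM in A498. Its log2 fold change was 3.92 ± 0.0475 (15.1-fold, adjusted p = 7.0e-38, same test), again with no overlap between libraries with and without IFNγ.

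The subunits form a heterodimer, yet their transcripts were far apart in level. The ratio of *TAP1* to *TAP2* per kilobase in A498 was 12.1 ± 0.0885 (SD, n = 3) in Cnsi, 14.2 ± 0.644 with IFNγ added, 10.8 ± 0.402 in PD-L1si and 13.5 ± 0.201 in PD-L1si IFNγ. It thus lay between 10.4 and 14.9 in every library, and was higher in each IFNγ library than in any without IFNγ. *ABCB9*, a related lysosomal peptide transporter, had log2 fold changes of -0.00 in A498 and -0.18 in 786-O and did not pass the threshold.

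Both tapasin genes rose in A498, the less abundant one by more. *TAPBP* (ENSG00000231925, chr6:33299694-33314284, minus strand) had 511, 493 and 516 in Cnsi, 1023, 993 and 1041 with IFNγ added, 332, 343 and 318 in PD-L1si and 932, 810.3 and 883 in PD-L1si IFNγ CPM. *TAPBPL* (ENSG00000139192, chr12:6451690-6466517, plus strand) had 14.8, 17.7 and 15.9 in Cnsi, 69.8, 67.4 and 70.7 with IFNγ added, 14.3, 12.7 and 14.5 in PD-L1si and 80.2, 67.8 and 75.9 in PD-L1si IFNγ CPM in A498. The log2 fold change with IFNγ in Cnsi was 1.01 ± 0.0435 for *TAPBP* (2.01-fold), and *TAPBPL* rose 4.29-fold (SE 0.0648 on the log2 scale, adjusted p = 6.1e-21 and 2.4e-25, edgeR's quasi-likelihood test, Benjamini-Hochberg adjusted). The ratio of *TAPBP* to *TAPBPL* per kilobase accordingly went from 16.3 ± 1.71 (SD, n = 3) in Cnsi to 7.59 ± 0.0211 in Cnsi IFNγ. In 786-O *TAPBPL* had 18.3, 18.8 and 18.1 in Cnsi, 58.3, 67.9 and 68.1 with IFNγ added, 21.2, 18.1 and 21.4 in PD-L1si and 75.8, 70.9 and 69.8 in PD-L1si IFNγ CPM, with no overlap between libraries with and without IFNγ. Its log2 fold change there was 1.81 ± 0.0697 (adjusted p = 2.6e-17, same test).

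The aminopeptidases rose in both lines, with a different balance. *ERAP1* (ENSG00000164307, chr5:96760810-96808100, minus strand) had 84.2, 87.4 and 84.7 in Cnsi, 194, 193 and 196 with IFNγ added, 75.7, 79.8 and 75.4 in PD-L1si and 215, 235 and 223 in PD-L1si IFNγ CPM in A498 and 91.4, 84.1 and 87.4 in Cnsi, 197, 219.8 and 212 with IFNγ added, 91.9, 99.5 and 98.1 in PD-L1si and 197, 210.0 and 208 in PD-L1si IFNγ CPM in 786-O. Its log2 fold change in Cnsi was 1.19 ± 0.0424 (SE) in A498 and 1.26 ± 0.0518 in 786-O. *ERAP2* (ENSG00000164308, chr5:96875986-96919703, plus strand), which lies beside *ERAP1* on the other strand, had 199.7, 200.0 and 191 in Cnsi, 343, 374 and 344 with IFNγ added, 156, 157 and 162 in PD-L1si and 327, 370.0 and 347 in PD-L1si IFNγ CPM in A498 and 123, 125 and 132 in Cnsi, 386, 437 and 421 with IFNγ added, 119.8, 134 and 127 in PD-L1si and 384, 386 and 412 in PD-L1si IFNγ CPM in 786-O. Its log2 fold change was 0.85 ± 0.0445 in A498 and 1.71 ± 0.0541 in 786-O (adjusted p = 2.0e-18 and 3.6e-19, edgeR's quasi-likelihood test, Benjamini-Hochberg adjusted). The ratio of *ERAP1* to *ERAP2* per kilobase went from 0.460 ± 0.0120 (SD, n = 3) to 0.583 ± 0.0305 with IFNγ in A498, whereas in 786-O it went from 0.734 ± 0.0443 to 0.535 ± 0.00391. The ratio thus rose in one line and fell in the other, without overlap between the groups in either, and remained under 1 in every library. Of 6 other peptidases that can trim or destroy peptides, 1 rose in each line, *LAP3*, a leucine aminopeptidase of the cytosol (log2 fold change 4.20 in A498 and 3.47 in 786-O). Over all genes tested, 18.2% rose in A498 and 11.1% in 786-O. *BLMH* fell in A498 (-0.58), where 18.5% of all genes tested fell. The median over the 6 was -0.34 in A498 and 0.00 in 786-O.

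**Figure D2:**
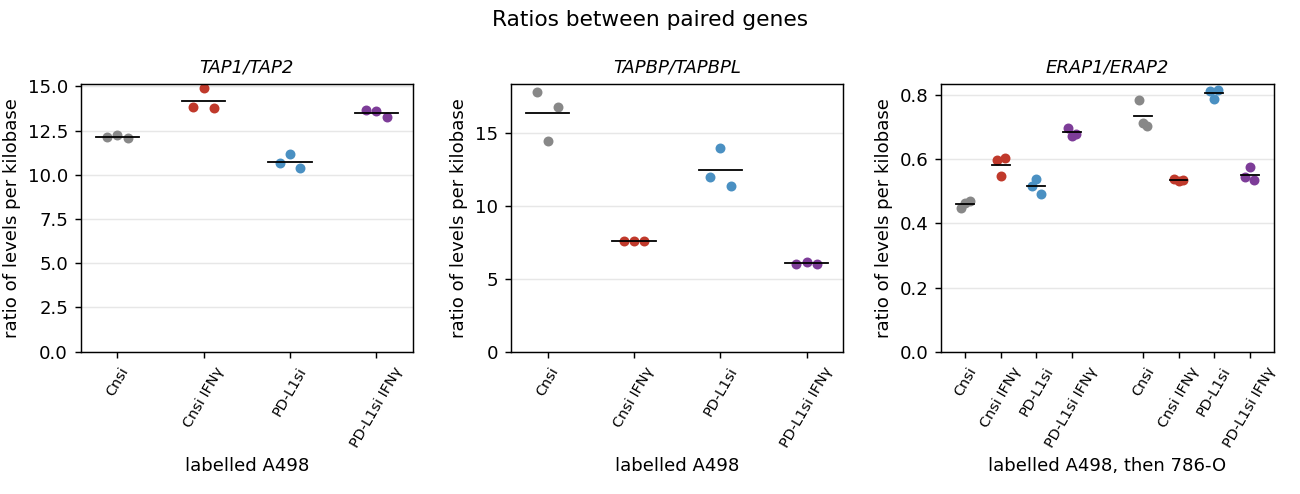
Ratio of normalized levels per kilobase of canonical transcript between paired genes (vertical axes from 0), with 1 point per library, a line at the group mean, and colours for the 4 groups. *TAP1*/*TAP2* lies between 10.4 and 14.9, *TAPBP*/*TAPBPL* drops with IFNγ, and *ERAP1*/*ERAP2* goes up with IFNγ in the libraries labelled A498 and down in those labelled 786-O.

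The chaperones of the loading complex did not move together. *CALR* (ENSG00000179218, chr19:12938578-12944489, plus strand), the calcium-binding lectin, had 1641, 1631 and 1580.3 in Cnsi, 565, 606 and 562 with IFNγ added, 1266, 1297 and 1222 in PD-L1si and 570.0, 549.9 and 549 in PD-L1si IFNγ CPM in the libraries labelled A498. All 6 IFNγ libraries lay below all 6 others, and its log2 fold change in Cnsi was -1.48 ± 0.0398 (SE), 2.80-fold lower (adjusted p = 3.3e-27, edgeR's quasi-likelihood test, Benjamini-Hochberg adjusted). *CANX* (ENSG00000127022, chr5:179678628-179731641, plus strand), the membrane-bound lectin, had log2 fold changes of 0.09 ± 0.0409 in A498 and 0.18 ± 0.0498 in 786-O and did not pass the threshold in either line. The ratio of *CANX* to *CALR* per kilobase in A498 was 0.318 ± 0.00176 (SD, n = 3) in Cnsi and 0.950 ± 0.0256 in Cnsi IFNγ. *PDIA3* (ENSG00000167004, chr15:43746394-43773279, plus strand) had 627, 616 and 598 CPM in Cnsi and 665, 678 and 651 in Cnsi IFNγ in A498, a log2 fold change of 0.11 ± 0.0377 that did not pass the threshold on size. In 786-O it had 405, 415 and 447 and 680.2, 731 and 716 CPM in those groups, with no overlap, and rose by 0.75 ± 0.0488 on the log2 scale (adjusted p = 2.0e-12, same test).

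A row on the other strand was also counted at the *CALR* locus. ENSG00000267458 (chr19:12944118-12944487, minus strand), annotated as a long non-coding RNA, has all 270 of its exonic bases inside the last exon of *CALR*, and it was singled out after its values were seen. In the libraries labelled A498 it held 4653, 4657 and 4469 counts in Cnsi and 1485, 1959 and 1389 in Cnsi IFNγ, and fell by 1.42 on the log2 scale. Its count was 0.110 to 0.146 of the *CALR* count in each of the 12 libraries of that line. In the libraries labelled 786-O, where *CALR* was listed at 0, it held 3850, 3543 and 3914 counts in Cnsi and 5449, 5625 and 4979 in Cnsi IFNγ, and rose by 0.64 ± 0.0498 (SE). The difference between the lines was 2.06 ± 0.0803 (adjusted p = 1.8e-22, edgeR's quasi-likelihood test, Benjamini-Hochberg adjusted). The methods describe a stranded kit and stranded counting, but counts alone cannot settle how fully strand was kept in these libraries. The canonical *CALR* transcript has 1901 exonic bases, beside the 270 of this row. How many of the reads of this row came from *CALR* transcripts was not tested, so its values cannot be read as those of either transcript alone.

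Other chaperones and folding factors of the endoplasmic reticulum, outside the loading complex, were listed for the same comparison. Of 9 listed, 4 fell and none rose in A498, where 18.5% of all genes tested fell, with a median log2 fold change of -0.26. The 4 were *MOGS* (-1.11), *PDIA4* (-0.90), *HSP90B1* (-0.76) and *PRKCSH* (-0.69). In 786-O, 7 were tested and 0 passed the threshold in either direction in edgeR's test, with a median of 0.23. Of these, 6 had an adjusted p under 0.05 and 6 a positive value, so the count rests on the threshold on size. Among all 21209 genes tested in 786-O, 4595 with a positive and 3643 with a negative value had such an adjusted p. *PDIA4* had 0.36 there and *HSP90B1* 0.29. The difference between the lines passed the threshold for 3 of the 7, where 28.4% of all genes tested in both did, namely *PDIA4* (1.26 ± 0.0661, SE), *HSP90B1* (1.05 ± 0.0692) and *PRKCSH* (0.84 ± 0.0663), each higher in 786-O.

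**Figure D3:**
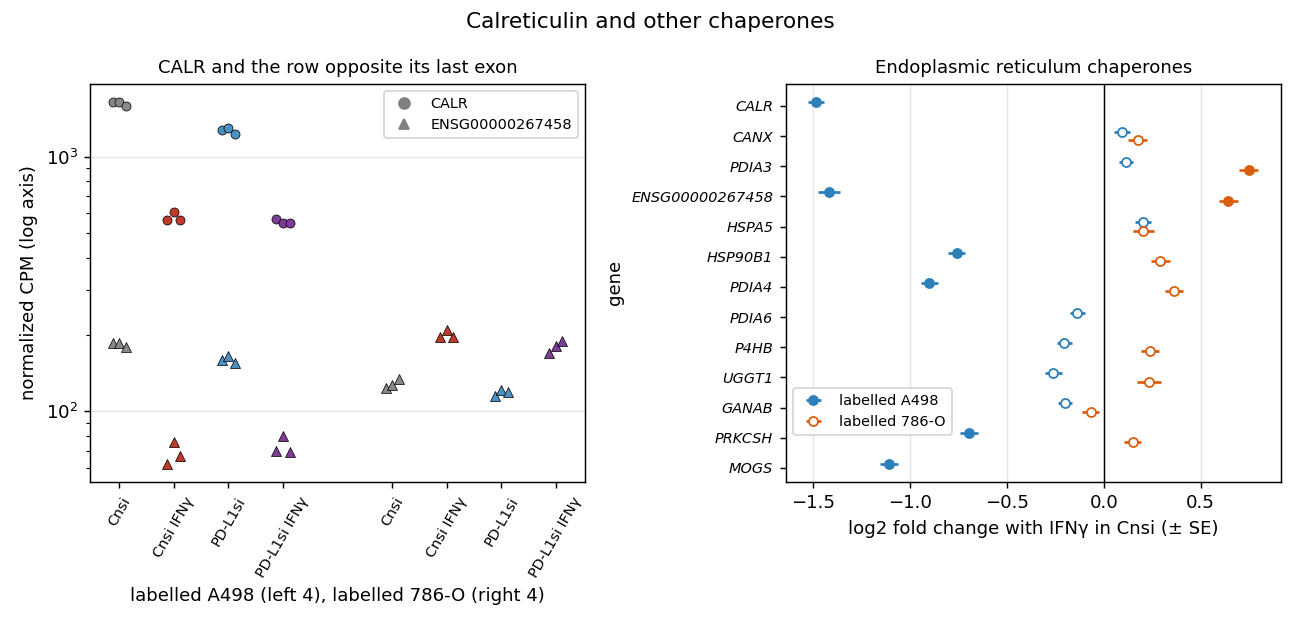
Left, normalized CPM (log axis) of *CALR* (circles) and of ENSG00000267458, the row opposite its last exon (triangles), in each library, by group and line. Right, log2 fold change with IFNγ in Cnsi cells (± SE) of chaperones in both lines, filled where the threshold was passed. The row opposite *CALR* drops with IFNγ in the libraries labelled A498 (log2 fold change -1.42) and goes up in those labelled 786-O (0.64), as *PDIA3* does there (0.75).

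*NLRC5* (ENSG00000140853, chr16:56989485-57083531, plus strand) was near the bottom of the order without IFNγ and rose in both lines. In A498 it had 36.8, 32.1 and 33.1 in Cnsi, 329, 323 and 336 with IFNγ added, 43.6, 42.5 and 42.9 in PD-L1si and 325, 276 and 303 in PD-L1si IFNγ CPM. In 786-O the values were 26.2, 27.8 and 26.0 in Cnsi, 360.5, 406 and 421 with IFNγ added, 33.5, 30.2 and 30.6 in PD-L1si and 415, 413 and 402 in PD-L1si IFNγ CPM. Libraries with and without IFNγ did not overlap in either line. The log2 fold change in Cnsi was 3.28 ± 0.0543 (SE, 9.69-fold) in A498 and 3.89 ± 0.0620 (14.8-fold) in 786-O (adjusted p = 1.1e-33 and 1.3e-25, edgeR's quasi-likelihood test, Benjamini-Hochberg adjusted). Among 8 genes for its DNA-bound partners and for CIITA, the related regulator of class II genes, 4 rose in A498 and 2 of the 7 tested rose in 786-O. The share of all genes tested that rose was 18.2% in A498 and 11.1% in 786-O. *CIITA* rose by 2.77 and 2.56 on the log2 scale, and *RFX5*, the DNA-binding RFX subunit, by 1.35 and 1.49. *CREB1* (0.77) and *RFXANK* (0.50) also rose in A498, and *NFYA*, *NFYB* and *NFYC* did not pass the threshold in either line.

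Genes on either side of peptide loading in the pathway rose with IFNγ as well. The 5 class I chain genes examined rose in both lines, with median log2 fold changes of 2.68 in A498 and 2.08 in 786-O. They ranged from 2.26 (*B2M*) to 3.71 (*HLA-F*) in A498 and from 1.31 (*HLA-C*) to 2.59 (*HLA-F*) in 786-O, and reads of the near-identical heavy chain genes may be shared between them. The immunoproteasome subunits and the PA28 activator, which make class I peptides, rose in 5 of 5 genes in A498 and 4 of 4 tested in 786-O. Beside these lists, 18.2% of all genes tested rose in A498 and 11.1% in 786-O. *PSMB9*, which lies head to head with *TAP1*, rose by 4.36 and 3.13. Upstream, *IRF1* rose by 4.62 and 4.77, and *IRF2* by 1.55 and 1.33.

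The same contrast in silenced cells gave the same calls by number. With PD-L1si, IFNγ raised 7 of the 10 genes in A498 (17.6% of all genes tested rose) and lowered 1, again *CALR* (15.9% fell), and it raised 6 of 7 in 786-O (11.0% rose). *TAP1* had a log2 fold change of 4.72 ± 0.0444 (SE) in A498 and 3.63 ± 0.0638 in 786-O. *NLRC5* had 2.81 ± 0.0527 and 3.70 ± 0.0610, and *CALR* -1.18 ± 0.0397 in A498. These libraries are separate from those of the comparison in Cnsi cells.

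**Figure D4:**
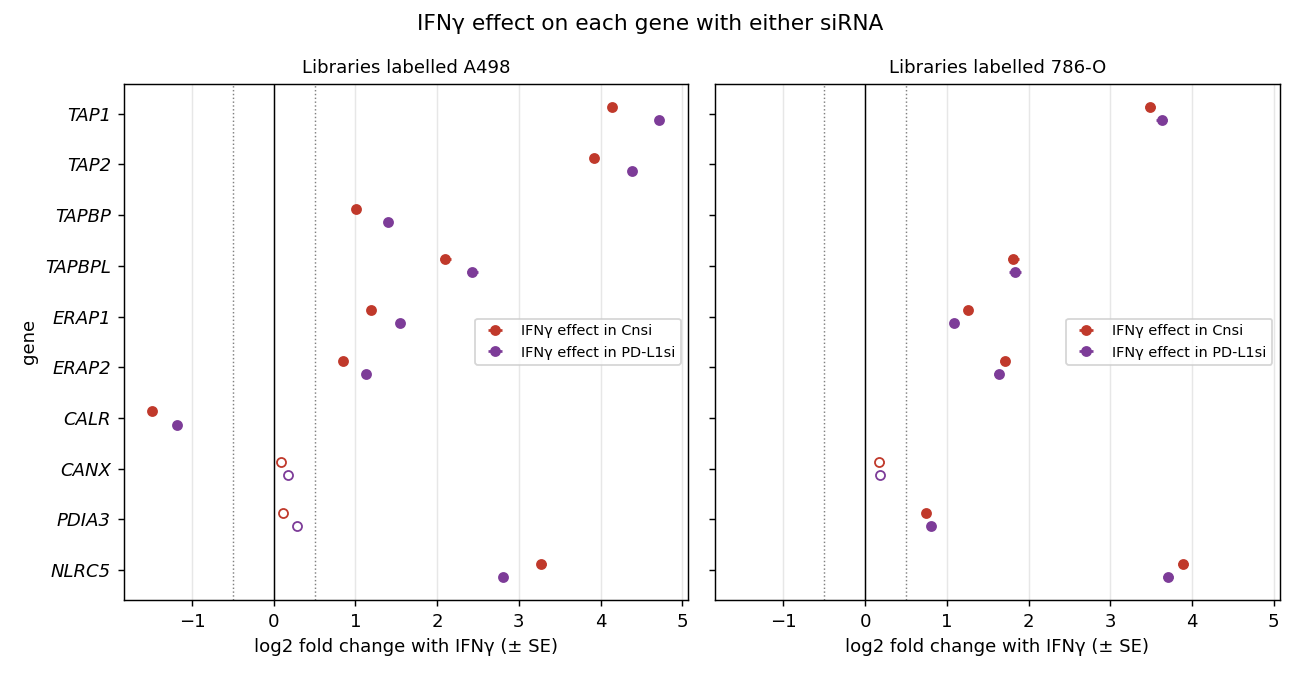
Log2 fold change with IFNγ (± SE from the quasi-likelihood fit) of each gene in Cnsi cells and in PD-L1si cells, by line. Filled points passed the threshold, dotted lines mark a log2 fold change of 0.5 in size, and genes listed at 0 have no point. In A498 the PD-L1si points lie to the right of the Cnsi points for every gene except *NLRC5* (2.81 against 3.28).

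Without IFNγ, the transporter and tapasin genes were lower with PD-L1si than with Cnsi in A498. Loss of PD-L1 and other effects of the siRNA pool cannot be told apart in this comparison. 3 of the 10 genes fell and none rose, where 5.60% of all genes tested fell, and they were *TAP1* (-0.77 ± 0.0417, SE), *TAPBP* (-0.61 ± 0.0437) and *TAP2* (-0.59 ± 0.0599, adjusted p = 5.7e-10, edgeR's quasi-likelihood test, Benjamini-Hochberg adjusted). The *TAP1* values of 107, 109 and 110.0 CPM in Cnsi and 63.1, 65.2 and 63.4 in PD-L1si did not overlap, and neither did those of *TAP2* and *TAPBP*. The other 6 genes without *NLRC5* had smaller negative values, from -0.36 for *CALR* to -0.15 for *ERAP1*. *NLRC5* had a positive value of 0.34 ± 0.0578 (adjusted p = 1.3e-05, same test), under the threshold on size, and its 3 PD-L1si libraries lay above its 3 Cnsi libraries. All 10 genes had an adjusted p under 0.05 in this comparison, so the count rests on the threshold on size. Of all 20916 genes tested, 2675 were higher and 3777 lower with PD-L1si at that adjusted p. Among related genes in A498, *IRF1* (-0.86), *HLA-F* (-0.59) and *PSMB9* (-1.19) fell, and the medians were -0.36 over the class I chains and -0.46 over the immunoproteasome and PA28 genes, beside 0.00 over all genes tested.

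In 786-O none of the 7 genes passed the threshold for PD-L1si without IFNγ, where 2.81% of all genes tested did in either direction. Of the 7, 5 had an unadjusted p and 4 an adjusted p under 0.05, so the count rests on the threshold on size. Among all 21209 genes tested, 1015 were higher and 1706 lower at that adjusted p. DESeq2, held to the same threshold on size, called 0 of the 7. The values ran from -0.27 ± 0.0499 (SE) for *CANX* to 0.24 ± 0.0627 for *NLRC5*, and *TAP1* had -0.19 ± 0.0604. The *NLRC5* libraries again did not overlap, with 26.2, 27.8 and 26.0 CPM in Cnsi and 33.5, 30.2 and 30.6 in PD-L1si.

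Under IFNγ, the condition in which PD-L1 is induced, silencing moved none of these genes past the threshold in either line. In A498, 10.1% of all genes tested passed it in either direction and 0 of the 10 did. Of the 10, 7 had an unadjusted p and 6 an adjusted p under 0.05, so the count rests on the threshold on size. Among all 20916 genes tested, 3390 were higher and 3732 lower at that adjusted p. DESeq2, held to the same threshold on size, called 0 of the 10. The values lay between -0.26 ± 0.0410 (SE) for *CANX* and 0.21 ± 0.0407 for *ERAP1*, with -0.19 ± 0.0369 for *TAP1* and -0.13 ± 0.0464 for *NLRC5*. In 786-O, 3.03% of all genes passed and 0 of the 7 did. Of the 7, 2 had an unadjusted p and 1 an adjusted p under 0.05. Among all 21209 genes tested, 1264 were higher and 1710 lower at that adjusted p. DESeq2, held to the same threshold on size, called 0 of the 7. The values there lay between -0.26 ± 0.0499 for *CANX* and 0.16 ± 0.0631 for *TAPBPL*, and *TAP1* had -0.05 ± 0.0565. *CANX* thus had the most negative value of the measured genes in both lines. *CD274* in the same libraries was 7.00-fold lower in A498 and 1.92-fold lower in 786-O.

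**Figure D5:**
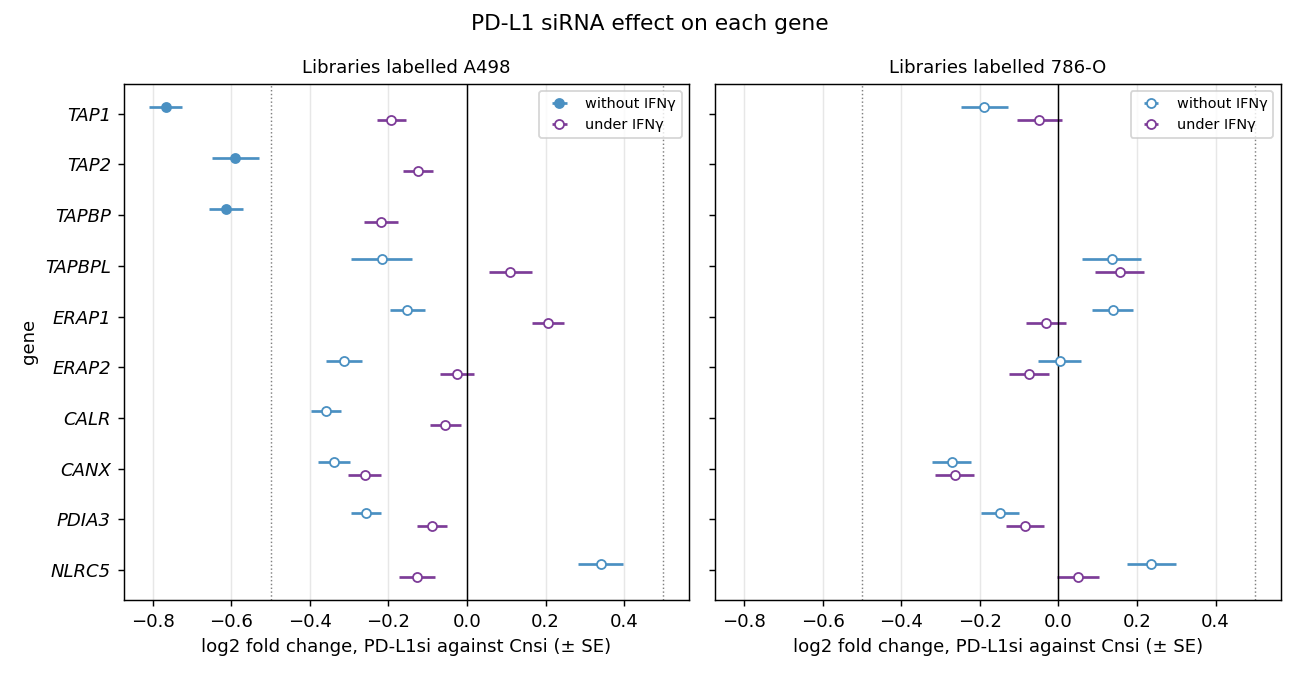
Log2 fold change of PD-L1si against Cnsi (± SE) of each gene without and under IFNγ, by line. Filled points passed the threshold, and dotted lines mark a log2 fold change of 0.5 in size. In A498 without IFNγ, *TAP1* (-0.77), *TAPBP* (-0.61) and *TAP2* (-0.59) lie past the line and *NLRC5* (0.34) is on the other side of 0, while no point under IFNγ lies past it in either line.

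The interaction asks whether the IFNγ effect differed between the siRNAs, with a positive value for a more positive effect in PD-L1si cells. In A498, 1 of the 10 genes passed the threshold, where 2.45% of all genes did. This was *TAP1*, with 0.57 ± 0.0556 (SE, adjusted p = 2.5e-09, edgeR's quasi-likelihood test, Benjamini-Hochberg adjusted). The *TAP1* difference between the siRNAs was -0.77 without IFNγ and -0.19 under it. Next in size were *NLRC5* with -0.47 ± 0.0741 and *TAP2* with 0.47 ± 0.0710, both under the threshold on size. An adjusted p under 0.05 was found for 9 of the 10. Of all 20916 genes tested, 1327 with a positive and 573 with a negative value had such an adjusted p. *NLRC5* was the only one of the 10 with a negative value. It passed the threshold, at -0.53, without replicate 1 of Cnsi or without replicate 1 of PD-L1si IFNγ. In 786-O, 0.0990% of all genes passed and 0 of the 7 did. Of the 7, 2 had an unadjusted p under 0.05 (*ERAP1* and *NLRC5*) and 0 had an adjusted p under 0.05. Among all 21209 genes tested, 24 with a positive and 22 with a negative value had such an adjusted p. DESeq2, held to the same threshold on size, called 0 of the 7.

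The IFNγ effect in Cnsi cells was then compared between the lines in one model. Of the 7 genes measured in both, 4 differed past the threshold, where 28.4% of the 17999 genes tested in both did. *ERAP2* (0.86 ± 0.0725, SE), *PDIA3* (0.63 ± 0.0619) and *NLRC5* (0.61 ± 0.0831) had the larger effect in the libraries labelled 786-O, and *TAP1* (-0.66 ± 0.0712) in those labelled A498 (adjusted p from 5.6e-13 to 7.6e-08, edgeR's quasi-likelihood test, Benjamini-Hochberg adjusted). *TAPBPL* had -0.29 ± 0.102, under the threshold on size. *ERAP1* (0.07 ± 0.0662) and *CANX* (0.08 ± 0.0669) had values close to 0. *NLRC5* and *TAP1* therefore differed between the lines in opposite directions, and 3 of the 5 class I chain genes examined, *HLA-B*, *HLA-C* and *HLA-F*, also rose more in A498 (-0.91 to -1.13). For PD-L1si under IFNγ, 5.60% of all genes differed between the lines and 0 of the 7 did. Of the 7, 3 had an unadjusted p under 0.05 (*TAP1*, *ERAP1* and *NLRC5*) and 1, *ERAP1*, an adjusted p under 0.05. Among all 17999 genes tested, 1595 with a positive and 1338 with a negative value had such an adjusted p. DESeq2, held to the same threshold on size, called 0 of the 7.

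Genes with a like pattern were found by the distance over 6 values, the mean log2 CPM of each of the 3 other groups minus that of Cnsi in each line, among 12591 genes with a mean of at least 1 CPM in both. This was done for 3 of the 10 genes. Nearest to *NLRC5* were *HLA-DMB*, *DDR2*, *CAND2*, *TRIM31* and *APOL6* (distances 0.555 to 1.19). The 5 nearest to *TAP1* were *LAP3*, *CTSS*, *PSMB9*, *SLC15A3* and *RASGRP3* (0.589 to 0.757). Nearest to *ERAP2* were *VPS9D1-AS1*, *SCML1*, *UBA7*, *MCUB* and *APOBEC3F* (0.316 to 0.406). These are descriptions of 24 libraries in 8 groups that share their Cnsi libraries.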

How the data were processed

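Poly(A) RNA libraries were made with a stranded kit. Per the deposited file and the labels, the authors trimmed reads with Trimmomatic 0.36.6, aligned them to GRCh38 with HISAT2 2.1.0 and counted them per GENCODE gene with featureCounts 1.6.3 in stranded mode, giving raw counts for 39321 genes. The methods list 3 groups for RNA-Seq and the labels 4. Of the genes, 39148 were matched to GENCODE release 44 by Ensembl identifier.

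Genes with counts summing to at least 10 in a group were tested in edgeR 4.0.16 (R 4.3.3) with TMM scaling and a robust quasi-likelihood fit of the 12 libraries of a line, or of all 24 for differences between lines. Benjamini-Hochberg adjustment covered all genes tested, and a call needed an adjusted p under 0.05 and a log2 fold change over 0.5 in size. On simulated counts, 200 of 200 genes changed by 1 on the log2 scale were called in A498 and in 786-O, with 6 and 3 unchanged genes called. The simulation gave every gene the same spread and changed only well-counted genes. It does not show how often smaller changes or more variable genes would be called. The study's methods tested protein-coding genes, which was run as an alternative, with DESeq2 1.42.0, other scalings and filters, a replicate block and each library left out. Likeness used a prior count of 2. The 10 genes, all named by rule, and the other lists were chosen with earlier results of these data known. Some genes of those lists are not reported here.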

Additional observations from a re-analysis of the deposited data

Results flagged for a closer look

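For 5 of these results the IFNγ effect in Cnsi cells differed between the lines by a test of the difference itself, labelled 786-O minus labelled A498, in edgeR's quasi-likelihood test (Benjamini-Hochberg adjusted). *TAP1* differed by -0.66 on the log2 scale (adjusted p = 3.4e-10), *ERAP2* by 0.858 (5.6e-13), *PDIA3* by 0.627 (3.4e-11) and *NLRC5* by 0.608 (7.6e-08). ENSG00000267458, the row opposite the last exon of *CALR*, differed by 2.06 (1.8e-22), with a fall in A498 and a rise in 786-O. How many of its reads came from *CALR* transcripts was not tested. In A498 the IFNγ effect on *TAP1* also differed between the siRNAs, by an interaction of 0.574 (2.5e-09). Each line was sequenced on its own instrument, so a difference between lines cannot be told apart from one between instruments. Groups of 3 were not searched for outlying libraries.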

How the results depend on the processing

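The counts of genes called under IFNγ kept within 1.5 times their value in all alternatives run for either siRNA in either line. Where the threshold on size was dropped, PD-L1si without IFNγ called 10 genes in A498 and 4 in 786-O. PD-L1si under IFNγ called 6 and 1, its difference between the lines 1, and the A498 interaction 9. Over all genes tested, PD-L1si without IFNγ then called 2675 up and 3777 down of 20916 in A498. In 786-O it called 1015 up and 1706 down of 21209. Under IFNγ these were 3390 and 3732 in A498, and 1264 and 1710 in 786-O. The difference between the lines called 1595 up and 1338 down of 17999, and the A498 interaction 1327 up and 573 down of 20916. With a log2 fold change over 1, the differences between lines in the IFNγ effect, PD-L1si without IFNγ in A498 and the A498 interaction each called 0. Leaving out 1 library gave 1 to 2 calls for the A498 interaction, the second being *NLRC5* without replicate 1 of Cnsi or of PD-L1si IFNγ.

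The sign turned only for values close to 0 that were not called in the fit reported or under these alternatives. When 1 library was left out, values ranged for PD-L1si under IFNγ in 786-O from -0.076 to 0.0023 (*ERAP1*) and from -0.014 to 0.096 (*NLRC5*), and in A498 from -0.071 to 0.020 (*ERAP2*). The difference of that effect between lines ranged from -0.031 to 0.062 (*CANX*), from -0.087 to 0.0068 (*ERAP2*), from -0.014 to 0.039 (*PDIA3*) and from -0.014 to 0.11 (*TAPBPL*), with -0.013 for *CANX* and -0.0066 for *PDIA3* when only the groups compared were fitted. The 786-O interaction ranged from -0.039 to 0.045 (*CANX*) and from -0.056 to 0.060 (*TAPBPL*), with -0.0090 for *CANX* by filterByExpr and -0.013 for *CANX* and -0.00028 for *TAPBPL* among protein-coding genes. PD-L1si without IFNγ in 786-O ranged from -0.035 to 0.063 for *ERAP2*, with -0.0025 without a filter, and the line difference in the IFNγ effect on *ERAP1* was -0.0041 without a filter. The cause was not tested.

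Replicate numbers gave no clear pairing of the samples. The correlation of same-numbered libraries averaged 0.0496 in A498 and 0.0529 in 786-O, beside -0.0248 and -0.0261 for libraries of different numbers. In each line, 6 of 12 libraries correlated best with their own number. This check could not settle whether the libraries were paired. A fit with the replicate number as a block called 8 and 6 genes for IFNγ in Cnsi cells of A498 and 786-O, 3 and 0 for PD-L1si without IFNγ, 0 and 0 under IFNγ, and 1 and 0 for the interaction, as without it. With 3 replicates, the biological coefficient of variation was 0.0392 and 0.0560. DESeq2, other scalings and other filters, all held to the same thresholds, changed no call among the 10 genes.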

Other observations

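Reporters of the unfolded protein response, the stress pathway of the endoplasmic reticulum, were listed beside the chaperones. Of 5, *DDIT3*, a stress-induced transcription factor, rose with IFNγ in both lines (log2 fold changes of 2.03 in A498 and 0.63 in 786-O), and *SDF2L1*, a reticulum cofactor, fell in A498 (-1.01) and rose in 786-O (0.68). *XBP1*, *HERPUD1* and *DNAJB9* did not pass the threshold in either line. With PD-L1si against Cnsi, *DDIT3* fell in A498 without IFNγ (-1.01) and in 786-O under IFNγ (-0.64). In A498 under IFNγ and in 786-O without IFNγ none of the 5 passed the threshold. The lowest values there were -0.47 and -0.48, close to the threshold on size.

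Rows on the other strand of *TAP1* and *ERAP1* were looked at after the values were seen. PSMB8-AS1, with 672 of its 2423 exonic bases inside *TAP1* exons, held 0.231 to 0.334 of the *TAP1* count in the libraries labelled A498 and 0.232 to 0.342 in those labelled 786-O, and its log2 fold change with IFNγ in Cnsi was 3.85 and 3.04. ENSG00000272109, with 256 of 1354 exonic bases inside *ERAP1* exons, held 0.0644 to 0.0863 and 0.0595 to 0.0718 of the *ERAP1* count, with log2 fold changes of 1.30 and 1.32. How many reads these rows share with the genes opposite was not tested.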
